A study of Mus musculus with 7 samples.

Results

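Fibroblast growth factor (FGF) genes were followed in whole mouse embryos at embryonic day 11.5 (E11.5) that lacked SLMAP3 or carried the gene intact. The 10 genes were chosen by name, as the ligands Fgf8 and Fgf10, the receptors Fgfr1, Fgfr2 and Fgfr3, the feedback inhibitors Spry1, Spry2, Spry4 and Dusp6, and the target transcription factor Etv4. The choice was made with earlier results of these data known. They are 10 of the 25461 genes in the deposited table, and all 10 averaged at least 1 FPKM (fragments per kilobase of transcript, scaled to the depth of the library) over the 7 embryos. The table holds 1 FPKM value per gene and embryo for 3 knockout (KO) embryos, KOAC8-6, KOAC10-5 and KOAC10-8, and for 4 wildtype (WT) embryos, KOAC8-1, KOAC10-7, KOAC9-1 and KOAC10-2. All embryos were of the B6C3F1 strain. The KO allele had lost exon 3 of Slmap, which LoxP sites flank, through CMV-cre, and was then bred without cre. According to the study's methods it removes the SLMAP3 isoform and leaves SLMAP1 and SLMAP2. Tails were taken for genotyping, so that tail tissue was not in the libraries, and each library came from the body of a single embryo. The labels do not say whether embryos that share a KOAC series number shared a litter, and p-values measure the spread between these embryos.

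FGF ligands are secreted proteins that bind receptor tyrosine kinases at the cell surface together with heparan sulphate. The receptors signal through RAS and the kinase ERK, which switch on ETS transcription factors such as ETV4, and also switch on inhibitors of the pathway, the Sprouty proteins and the ERK phosphatase DUSP6. In the embryo FGF8 is made in signalling centres such as the ridge at the tip of the limb bud, the midbrain-hindbrain boundary, the front of the forebrain and the tail bud, and FGF10 is made in mesenchyme under budding epithelia such as limb and lung. Transcripts of Sprouty genes, Dusp6 and Etv4 are widely read as marks of cells that receive an FGF signal.

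Promoter sequences are shown for Fgfr3, the receptor whose values were higher in every KO embryo, and for Dusp6 and Spry2, feedback genes whose KO means lay on opposite sides of the WT means. They are RefSeq windows of build GRCm38.p6 that run from 250 bases before to 50 bases after a transcript's start, written 5′ to 3′ on the gene's strand. Of the 10 genes, 6 matched a window and were searched, namely Fgf10, Fgfr2, Fgfr3, Spry1, Spry2 and Dusp6. Fgf8, Fgfr1 and Etv4 matched none, and a window for Spry4 was not analysed here. Capitals mark CCGGAA, a core that ETS factors bind, which was searched on both strands. The windows are chr5:33721474-33721773 and chr5:33722056-33722355 on the plus strand for the starts of Fgfr3, chr10:99262981-99263280 on the plus strand for Dusp6, and chr14:105896770-105897069 on the minus strand for Spry2.
Fgfr3, first start: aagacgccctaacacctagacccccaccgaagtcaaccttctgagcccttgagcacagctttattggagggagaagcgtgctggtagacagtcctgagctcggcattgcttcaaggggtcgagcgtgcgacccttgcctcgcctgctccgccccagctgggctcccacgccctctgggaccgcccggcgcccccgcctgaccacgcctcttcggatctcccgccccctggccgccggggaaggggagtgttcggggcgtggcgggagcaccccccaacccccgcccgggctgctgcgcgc
Fgfr3, second start: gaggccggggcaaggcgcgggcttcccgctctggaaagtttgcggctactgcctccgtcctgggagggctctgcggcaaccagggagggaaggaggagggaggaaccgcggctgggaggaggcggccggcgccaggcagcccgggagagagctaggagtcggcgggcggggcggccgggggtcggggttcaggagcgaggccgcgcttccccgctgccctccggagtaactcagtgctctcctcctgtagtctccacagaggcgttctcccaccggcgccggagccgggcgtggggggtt
Dusp6: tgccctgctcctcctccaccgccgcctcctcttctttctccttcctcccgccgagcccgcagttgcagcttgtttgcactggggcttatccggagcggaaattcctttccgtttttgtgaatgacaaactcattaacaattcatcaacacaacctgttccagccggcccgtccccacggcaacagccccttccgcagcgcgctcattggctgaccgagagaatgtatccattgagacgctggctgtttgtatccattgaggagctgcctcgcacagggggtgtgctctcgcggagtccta
Spry2: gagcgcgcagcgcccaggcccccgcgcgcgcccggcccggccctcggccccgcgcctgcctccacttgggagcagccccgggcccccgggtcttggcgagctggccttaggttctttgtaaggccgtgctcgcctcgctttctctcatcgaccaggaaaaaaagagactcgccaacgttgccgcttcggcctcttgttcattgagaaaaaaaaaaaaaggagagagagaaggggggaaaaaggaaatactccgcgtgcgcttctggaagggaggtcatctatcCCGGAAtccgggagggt

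The motif was present in 1 of the 7 windows of the 6 genes searched, that of Spry2, where it began 33 bases after the start. Of all 32851 windows, 14.9% held it. The Fgfr3 windows were rich in CpG, with 26 and 30 CpG dinucleotides against a median of 7 over all windows. Their GC content was 69.7% and 73.0%, against a median of 52.7% over all windows. The Spry2 window held 28 CpG and the Dusp6 window 19. The absence of CCGGAA in the other windows says only that these letters are not there.

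Across the 10 genes, the KO mean was on the higher side of the log2 fold change for 7 and on the lower side for 3. With limma and Benjamini-Hochberg adjustment over the 16095 genes that averaged 1 FPKM or more, 0 of the 10 reached an adjusted p under 0.05, the lowest being 0.295. Among all genes tested 0.0373% passed, which was 6 genes, or 12 without WT embryo KOAC8-1. At an unadjusted p under 0.05, Fgf8 and Fgfr3 were higher in KO embryos, 2 of 10, against 5.27% of all genes tested, and 0 of 10 were lower, against 6.19%. Every KO embryo was above every WT embryo for Fgf8, Fgf10 and Fgfr3, 3 of 10, against 5.61% of all genes tested, and the reverse held for 0 of 10, against 5.98%. Because the 10 genes and all lists below were chosen with earlier results known, such shares are a description and no test of a list. The median log2 fold change of the 10 genes was 0.14, or 0.044 without KOAC10-8, and that of all genes tested was 0.01. Of all genes tested, 53.1% had a positive log2 fold change. In RNA of whole embryos, fewer cells of a type and less RNA per cell cannot be told apart.

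**Figure D1:**
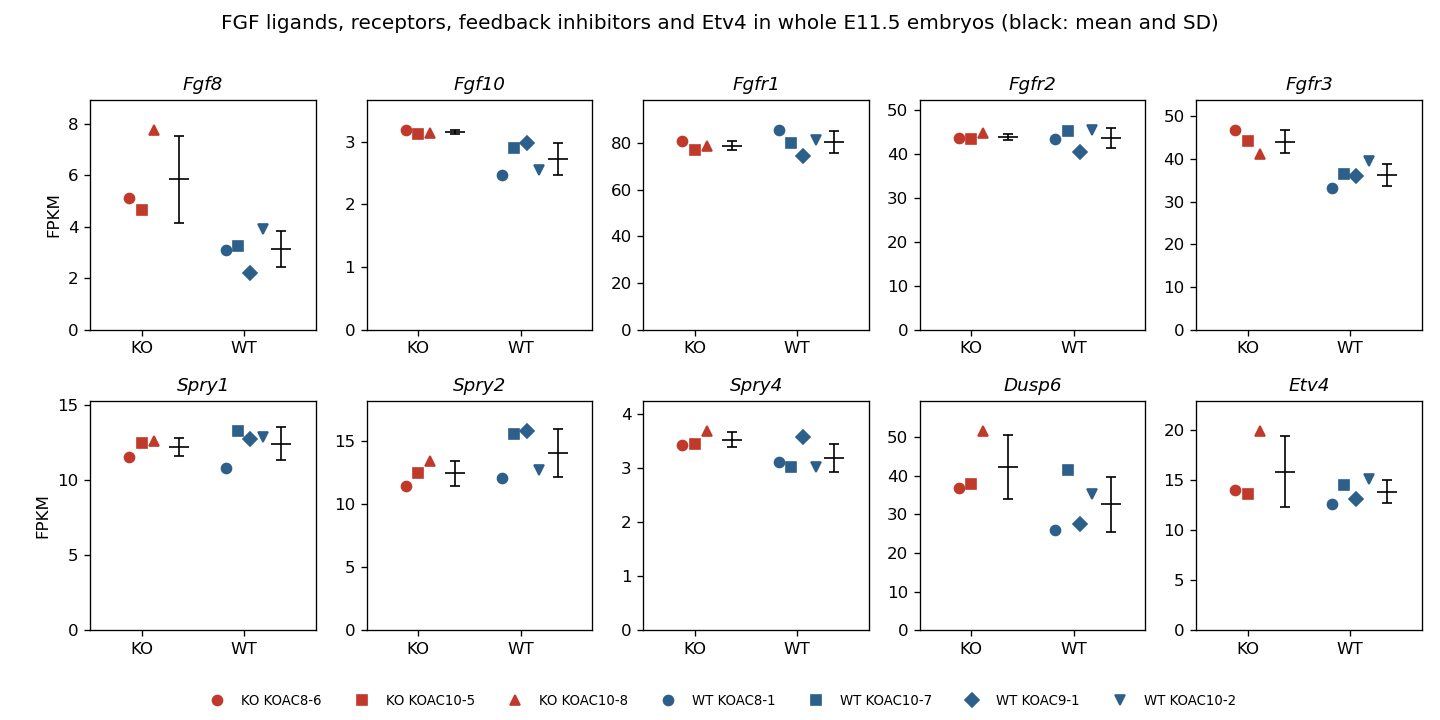
FPKM of the 10 FGF genes in each embryo (vertical axes, each from 0; KO red, WT blue, with a symbol for each embryo; black bars show mean and SD of 3 KO and 4 WT embryos). Fgf8, Fgf10 and Fgfr3 have no overlap between KO and WT embryos, and KO embryo KOAC10-8 is the highest of the 7 for Fgf8, Dusp6 and Etv4.

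The embryos stood apart in other tissues too. Slmap itself was lower in every KO embryo, at 65.1% of the WT mean (limma, adjusted p = 0.278), and the retained transcripts cannot be split by isoform in a table of genes. The sums of 10 fetal liver genes were 15.9, 6.36 and 9.46 FPKM in KO embryo KOAC10-5 and WT embryos KOAC10-7 and KOAC10-2, and 475 to 830 FPKM in the other 4. WT embryo KOAC10-2 had 1.81 FPKM of the forelimb gene Tbx5, against 7.61 to 10.04 FPKM elsewhere. Skeletal muscle genes summed to 209 to 239 FPKM in KO embryos and 303 to 384 FPKM in WT embryos, and erythroid genes to 16020 to 21000 FPKM in KO embryos and 23120 to 29750 FPKM in WT embryos. KO embryo KOAC10-8 had the largest sum of all FPKM values, 861448 against 770063 to 813357 in the other embryos. It also had the lowest sum of skeletal muscle genes and the highest sum of neural progenitor genes. Relative depth, from the steps between low FPKM values, was 0.808 to 1.22 of the average. Absolute depth was not derived from these values, so no counting interval is given.

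Levels of the 10 genes fell into steps that held in both genotypes. Fgfr1 was the most abundant of them on the FPKM scale, which is set per length of transcript, and its 74.5 to 85.6 FPKM lay apart from the 40.3 to 45.4 FPKM of Fgfr2. Fgfr2, Fgfr3 and Dusp6 overlapped in level. All values of Dusp6, 26.1 to 51.7 FPKM, were above all values of Etv4, 12.6 to 19.9 FPKM. Etv4, Spry2 and Spry1 overlapped in turn. Spry1, at 10.84 to 13.32 FPKM, was above Fgf8, at 2.21 to 7.76 FPKM. At the bottom Fgf8, Spry4 and Fgf10 overlapped, although Spry4 was above Fgf10 within each of the 7 embryos.

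Fgf8, the ligand of the signalling centres, lies at chr19:45736798-45742915 on the minus strand (GRCm38, GENCODE M21; ENSMUSG00000025219). It was at 5.11 FPKM in KOAC8-6, 4.64 in KOAC10-5 and 7.76 in KOAC10-8 among KO embryos, and at 3.10 FPKM in KOAC8-1, 3.25 in KOAC10-7, 2.21 in KOAC9-1 and 3.92 in KOAC10-2 among WT embryos. All KO values lay above all WT values, with KOAC10-8 well above the other KO embryos and KOAC9-1 the lowest of all. The KO mean of 5.83 ± 1.68 FPKM (SD, n = 3) was 187% of the WT mean of 3.12 ± 0.705 FPKM (SD, n = 4). The two-sided exact permutation test over the 35 splits of the embryos gave p = 0.0286, the smallest possible with 3 embryos against 4. The log2 fold change was 0.72 (standard error 0.195, limma adjusted p = 0.308), on the log2(FPKM + 1) scale, which understates the change of low genes. It stayed between 0.53, without KOAC10-8, and 0.84, without KOAC10-5, when each embryo was left out. Within series 8 (1 KO and 1 WT embryo) the log2 difference was 0.57, and within series 10 (2 KO and 2 WT embryos) it was 0.62.

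Markers of the sites that make FGF8 were set beside it. The midbrain-hindbrain boundary list of 6 genes summed to 22.1 to 28.0 FPKM in KO embryos and 21.1 to 26.2 FPKM in WT embryos. These sums overlapped, and 4 of the 6 genes were higher and 2, En1 (log2 fold change -0.12) and Pax8 (-0.01), lower in the KO mean. Wnt1, a ligand of the boundary and dorsal midline, was higher in every KO embryo (log2 fold change 0.39, limma adjusted p = 0.321). The limb ridge and ectoderm list of 6 genes summed to 29.1 to 37.0 FPKM in KO embryos and 27.0 to 33.7 FPKM in WT embryos. These sums overlapped too, and 1 of the 6 genes was higher in every KO embryo. This was Sp8, a factor of the ridge and the forebrain (log2 fold change 0.41, limma adjusted p = 0.347). Sp9, Dlx5, Dlx6, Trp63 and Wnt7a overlapped between groups, with log2 fold changes of 0.05, 0.12, 0.004, 0.05 and 0.14. Tail tissue was not in the libraries, so that the tail bud list cannot measure that site here. Of this list, 6 of 8 genes were in the table, with sums of 4.07 to 5.04 FPKM in KO embryos and 3.77 to 4.48 FPKM in WT embryos. Its defining gene Tbx6 was at 0.57 to 0.77 FPKM, Cdx2 was listed at 0 in KOAC10-5 and did not exceed 0.35 FPKM in any embryo, and Msgn1 and Cdx4 were not analysed here. Wnt3a, a ligand of the tail bud and the dorsal neural tube, was higher in every KO embryo (log2 fold change 0.29, limma adjusted p = 0.286). The defining gene T was at 0.02 on the same scale, and the KO means of Hes7, Ripply2 and Cdx2 were 91.4%, 82.2% and 40.9% of the WT means at levels under 1 FPKM. The part of these tissues in the Fgf8 values was not tested.

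Neural progenitor genes lay on the same side as Fgf8. On this list of 7 genes, 6 were higher in KO embryos and 5 of these had an unadjusted p under 0.05, with a median log2 fold change of 0.38 and a lowest adjusted p (limma) of 0.274. Over all genes tested 5.27% were higher at an unadjusted p under 0.05. This list, too, was chosen with earlier results of these data known. None of the 7 is at 0 in any embryo. Their summed level overlapped between groups, at 1349 to 1545 FPKM in KO embryos and 1190 to 1373 FPKM in WT embryos. Sox2, a factor of neural progenitors and foregut, was at 53.4, 56.5 and 74.5 FPKM in KOAC8-6, KOAC10-5 and KOAC10-8, and at 39.9, 43.2, 40.5 and 50.3 FPKM in KOAC8-1, KOAC10-7, KOAC9-1 and KOAC10-2. As with Fgf8, KOAC10-8 was the highest and the groups did not overlap. The ratio of Fgf8 to Sox2 FPKM, looked at after both had been seen, was 0.0940 ± 0.0111 (SD, n = 3) in KO embryos and 0.0714 ± 0.0113 (SD, n = 4) in WT embryos, and was higher in every KO embryo. Sox2 was on the lung and foregut list and not among the 7 genes above. Ratios of Fgf8 to those 7 genes were not computed, so this ratio does not speak for them. Set over Sox2 in the same way, Fgfr3 overlapped between groups, at 0.554 to 0.876 in KO embryos and 0.788 to 0.887 in WT embryos. The neuron list overlapped between groups, with sums of 612 to 749 FPKM in KO embryos and 629 to 773 FPKM in WT embryos. The part of neural tissue in the Fgf8 values was not tested.

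Fgf15 and Fgf17, ligands that are made in the brain beside Fgf8, had like profiles over the embryos. Fgf15, the most abundant of the other secreted ligands and the mouse counterpart of the human gut hormone FGF19, was at 19.1, 20.4 and 34.1 FPKM in KOAC8-6, KOAC10-5 and KOAC10-8. In the WT embryos KOAC8-1, KOAC10-7, KOAC9-1 and KOAC10-2 it was at 13.4, 11.7, 11.7 and 13.7 FPKM. The lowest KO value was above the highest WT value, and KOAC10-8 again stood highest. The KO mean was 194% of the WT mean (exact permutation test, p = 0.0286), with a log2 fold change of 0.86 (standard error 0.19, limma adjusted p = 0.279). Fgf17 gave 3.97, 3.62 and 5.44 FPKM among KO embryos and 2.83, 3.09, 2.88 and 4.05 FPKM among WT embryos, in the same order. WT embryo KOAC10-2 overlapped the KO range here, and the log2 fold change was 0.34 (standard error 0.15, limma adjusted p = 0.451), or 0.19 without KOAC10-8.

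**Figure D2:**
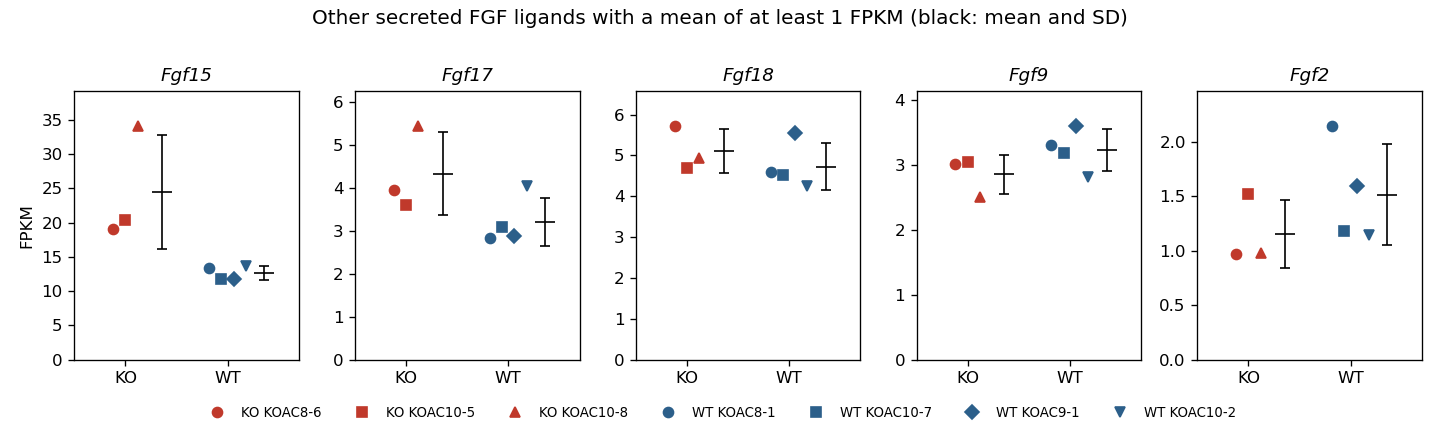
FPKM of the 5 secreted FGF ligands other than Fgf8 and Fgf10 that averaged at least 1 FPKM (vertical axes from 0; KO red, WT blue; black bars show mean and SD of 3 KO and 4 WT embryos). Every KO embryo is above every WT embryo for Fgf15, and the groups overlap for Fgf17, Fgf18, Fgf9 and Fgf2.

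The other 3 ligands that were tested did not share this profile. Fgf18 was higher in the KO mean by 0.10 on the log2 scale (limma adjusted p = 0.732), and Fgf9 and Fgf2 had log2 fold changes of -0.13 and -0.21 (limma adjusted p = 0.610 and 0.635). Leaving out 1 embryo brought these as near to 0 as 0.03 for Fgf18 (without KOAC8-6), -0.065 for Fgf9 (without KOAC10-8) and -0.10 for Fgf2 (without KOAC8-1). Of the 15 other secreted ligands in the table, 10 stayed under a mean of 1 FPKM and went untested. Of these, Fgf7, a ligand for epithelial FGFR2, was at 0.44 to 0.74 FPKM in KO embryos and 0.77 to 1.52 FPKM in WT embryos. Fgf1 was at 0.28 to 0.37 FPKM in KO embryos and 0.37 to 0.69 FPKM in WT embryos. For both genes all KO embryos lay below all WT embryos, at levels near the bottom of the table.

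Fgf10, the mesenchymal ligand, lies at chr13:118669791-118792115 on the plus strand (ENSMUSG00000021732). It was at 3.19 FPKM in KOAC8-6, 3.13 in KOAC10-5 and 3.15 in KOAC10-8, and at 2.46 FPKM in KOAC8-1, 2.90 in KOAC10-7, 2.99 in KOAC9-1 and 2.55 in KOAC10-2. The KO embryos were nearly level and all lay just above the WT embryos, which spread more widely. The means were 3.16 ± 0.0297 FPKM (SD, n = 3) in KO embryos and 2.72 ± 0.258 FPKM (SD, n = 4) in WT embryos (exact permutation test, p = 0.0571). Its log2 fold change was 0.16 (standard error 0.079, limma adjusted p = 0.482), and was 0.13 to 0.20 with each embryo left out.

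Fgf10 is made in limb mesenchyme, and the limb mesenchyme list of 9 genes summed to 192 to 196 FPKM in KO embryos and 167 to 195 FPKM in WT embryos. None of its genes is at 0. The lowest sum was that of WT embryo KOAC10-2, the embryo with little Tbx5, which also had the lowest Hoxd13, 3.76 FPKM, and the lowest Hoxa13, 1.72 FPKM, both genes of the distal limb. The other low WT value of Fgf10 was in KOAC8-1, where Tbx5 was at 8.18 FPKM. The lung and foregut list summed to 85.0 to 112 FPKM in KO embryos and 68.1 to 83.0 FPKM in WT embryos, of which Sox2 made up the greater part, and Sftpc, its gene of lung epithelium, was below 0.5 FPKM in all embryos. The part of limb or lung tissue in the Fgf10 values was not tested.

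Fgfr3 was the receptor gene without overlap between the groups. It lies at chr5:33721674-33737068 on the plus strand (ENSMUSG00000054252) and encodes a receptor known for its activity in cartilage and in neural progenitors. It was at 46.8 FPKM in KOAC8-6, 44.2 in KOAC10-5 and 41.3 in KOAC10-8, and at 33.2 FPKM in KOAC8-1, 36.4 in KOAC10-7, 35.95 in KOAC9-1 and 39.6 in KOAC10-2. All KO values lay above all WT values, but within the KO embryos KOAC8-6 was the highest and KOAC10-8, the highest for Fgf8, was the lowest. The KO mean of 44.1 ± 2.78 FPKM (SD, n = 3) was 121.5% of the WT mean of 36.3 ± 2.62 FPKM (SD, n = 4), and the exact permutation test gave p = 0.0286. The log2 fold change was 0.275 (standard error 0.07, limma adjusted p = 0.295), and was 0.23 without KOAC8-6 and 0.32 without KOAC10-8, the ends of the range with each embryo left out. Within series 8 the log2 difference was 0.48 and within series 10 it was 0.165.

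The markers of its best known sites lay on different sides. Of 5 cartilage genes tested, 1 was higher in the KO mean and 4 were lower, and the summed list was at 186 to 197 FPKM in KO embryos and 199 to 238 FPKM in WT embryos. Of the neural progenitor list, given above beside Fgf8, 6 of 7 genes were higher in the KO mean, but its sums overlapped between groups. Over the gene body, 13.9% of the exon bases of Fgfr3 overlap the antisense gene G630022F23Rik, which was at 0.52 to 0.69 FPKM, and the library kit does not mark strand. The part of these tissues in the Fgfr3 values was not tested.

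Fgfr1, the broad mesenchymal receptor, was at 81.0, 77.1 and 78.6 FPKM in KOAC8-6, KOAC10-5 and KOAC10-8 and at 85.6, 80.2, 74.5 and 81.3 FPKM in KOAC8-1, KOAC10-7, KOAC9-1 and KOAC10-2. The KO embryos sat inside the WT range, which had both the highest and the lowest value. Its log2 fold change was -0.03 (standard error 0.056, limma adjusted p = 0.892), and the interval of 2 standard errors on either side ran from -0.14 to 0.09. Fgfr1 lies at chr8:25513654-25575718 (ENSMUSG00000031565).

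Fgfr2, the receptor of many epithelia and, in another splice form, of mesenchyme, gave 43.6, 43.4 and 44.6 FPKM among KO embryos and 43.3, 45.2, 40.3 and 45.4 FPKM among WT embryos, in the same order. The KO values again lay within the WT range. Its log2 fold change was 0.01 (standard error 0.054, limma adjusted p = 0.955), with an interval of 2 standard errors from -0.10 to 0.12. The sign of this near-zero value changed with the scaling and the embryos used. Fgfr2 lies at chr7:130162451-133123350 (ENSMUSG00000030849), and a table of genes does not show which splice form was made. In this annotation 3.04% of its exon bases overlap Ctbp2 on the same strand. The epithelium list of 6 genes overlapped between groups, at 56.0 to 74.4 FPKM in KO embryos and 52.0 to 60.6 FPKM in WT embryos.

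As shares of the 3 receptors' summed FPKM, Fgfr3 took 27.3%, 26.8% and 25.1% in KOAC8-6, KOAC10-5 and KOAC10-8. In KOAC8-1, KOAC10-7, KOAC9-1 and KOAC10-2 it took 20.5%, 22.5%, 23.9% and 23.8%. The shares did not overlap, with means of 26.4% ± 1.18 (SD, n = 3) and 22.7% ± 1.58 (SD, n = 4), and the exact permutation test gave p = 0.0286. This test is not independent of that on Fgfr3 itself. The share of Fgfr1 was 46.8% to 47.8% in KO embryos and 48.9% to 52.8% in WT embryos.

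**Figure D3:**
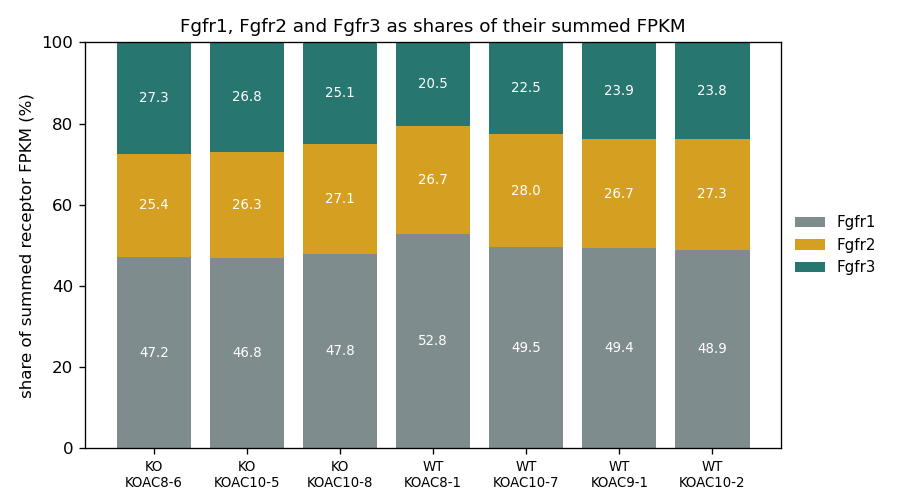
Share of Fgfr1, Fgfr2 and Fgfr3 in their summed FPKM (vertical axis, percent, from 0) in each of the 3 KO and 4 WT embryos. The Fgfr3 share is 25.1% to 27.3% in KO embryos and 20.5% to 23.9% in WT embryos.

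Among the feedback inhibitors, Dusp6, the phosphatase that removes phosphate from ERK in the cytoplasm, had the widest spread. It lies at chr10:99263231-99267489 (ENSMUSG00000019960). It was at 36.9 FPKM in KOAC8-6, 37.9 in KOAC10-5 and 51.7 in KOAC10-8, and at 26.1 FPKM in KOAC8-1, 41.5 in KOAC10-7, 27.5 in KOAC9-1 and 35.2 in KOAC10-2. KOAC10-8 was highest, but WT embryo KOAC10-7 exceeded the other KO embryos, so that the groups overlapped. The means were 42.2 ± 8.27 FPKM (SD, n = 3) and 32.6 ± 7.19 FPKM (SD, n = 4), with an exact permutation p = 0.200. For Dusp6 the log2 fold change was 0.37 (standard error 0.19, limma adjusted p = 0.494), and 0.22 without KOAC10-8.

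Etv4, the ETS factor switched on by ERK, followed the same embryo. It was at 14.0, 13.6 and 19.9 FPKM in KOAC8-6, KOAC10-5 and KOAC10-8 and at 12.6, 14.5, 13.1 and 15.1 FPKM in KOAC8-1, KOAC10-7, KOAC9-1 and KOAC10-2. Apart from KOAC10-8 the KO embryos lay within the WT range. The log2 fold change of 0.165 (standard error 0.14, limma adjusted p = 0.656) came to -0.002 without KOAC10-8. Etv4 lies at chr11:101769742-101785371 (ENSMUSG00000017724).

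Spry2, a Sprouty inhibitor of RAS signalling, was at 11.4 FPKM in KOAC8-6, 12.5 in KOAC10-5 and 13.4 in KOAC10-8, and at 12.05 FPKM in KOAC8-1, 15.6 in KOAC10-7, 15.8 in KOAC9-1 and 12.7 in KOAC10-2. The highest values were in the WT embryos KOAC10-7 and KOAC9-1, and the others overlapped. Its log2 fold change of -0.16 (standard error 0.11, limma adjusted p = 0.609) had the sign opposite to those of Dusp6 and Etv4. Spry2 lies at chr14:105891947-105896819 (ENSMUSG00000022114), on the chromosome of Slmap and 79.4 Mb from it.

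Spry1, a related inhibitor known from kidney and other branching organs, gave 11.6, 12.5 and 12.6 FPKM among the KO embryos KOAC8-6, KOAC10-5 and KOAC10-8 and 10.84, 13.32, 12.74 and 12.87 FPKM among the WT embryos KOAC8-1, KOAC10-7, KOAC9-1 and KOAC10-2. The KO embryos lay inside the WT range. The log2 fold change was -0.02 (limma adjusted p = 0.938), with an interval of 2 standard errors from -0.18 to 0.14. Of its exon bases, 24.4% overlap the antisense gene Gm42922, which was at 0.41 to 0.64 FPKM. Spry1 lies at chr3:37639947-37644598 (ENSMUSG00000037211).

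Spry4, the least abundant of the feedback inhibitors, was at 3.42, 3.45 and 3.69 FPKM in KOAC8-6, KOAC10-5 and KOAC10-8 and at 3.12, 3.01, 3.56 and 3.02 FPKM in KOAC8-1, KOAC10-7, KOAC9-1 and KOAC10-2. The KO embryos were above 3 of the 4 WT embryos, and KOAC9-1 overlapped them. Its log2 fold change was 0.115 (standard error 0.076, limma adjusted p = 0.584). Spry4 carries the identifier ENSMUSG00000024427.

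Over the 5 feedback and target genes, 3 were higher and 2 lower in the KO mean, 0 of 5 had an unadjusted p under 0.05, and the median log2 fold change was 0.115. Without KOAC10-8 it was -0.002. KO and WT embryos overlapped for each of the 5. A test of whether Fgf8 differed more than these genes was not run.

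**Figure D4:**
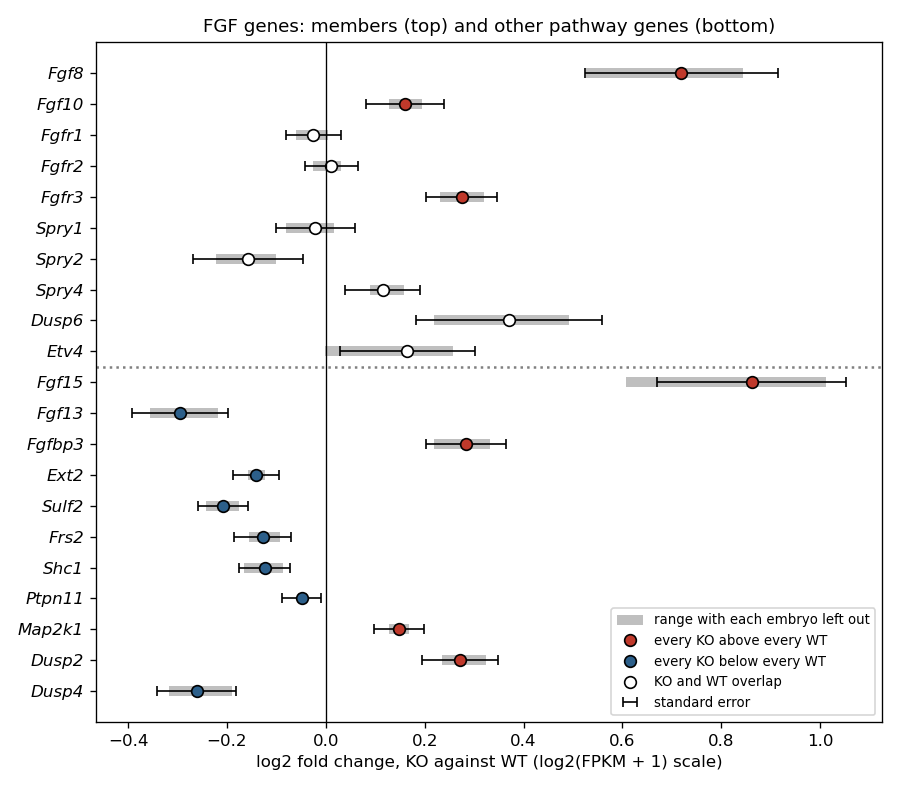
Log2 fold change between KO and WT embryos on the log2(FPKM + 1) scale (horizontal axis) for the 10 FGF genes and, under the dotted line, the other pathway genes with no overlap or an unadjusted p under 0.05. Black bars are standard errors of 3 KO and 4 WT embryos, grey bars the range with each embryo left out, and filled points mark genes without overlap; Fgf8 and Fgf15 lie farthest to the right.

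Among the 45 pairs of the 10 genes, the highest Pearson correlation over the 7 embryos was that of Dusp6 with Etv4. Pearson's r of log2(FPKM + 1) was 0.85 (exact permutation test, two-sided, p = 0.00595, adjusted p = 0.268 over the 45 pairs) and Spearman's rho was 0.75 (exact permutation p = 0.0663). Without KOAC8-1 and KOAC10-8, the embryos farthest from the median of Dusp6, r was 0.57. For Fgf8 with Dusp6, r was 0.82 (exact permutation p = 0.0290, adjusted p = 0.547) and rho was 0.71 (exact permutation p = 0.0881), and r was 0.41 without KOAC10-8 and KOAC9-1. For Fgf8 with Etv4, r was 0.80 (exact permutation p = 0.0365, adjusted p = 0.547) and rho was 0.68 (exact permutation p = 0.110), and r was 0.20 without KOAC10-8 and KOAC9-1. For the last 2 pairs KOAC10-8 and KOAC9-1 were left out as the embryos farthest from the median of Fgf8. This narrows the range of Fgf8, so a lower r cannot show what the relations rest on. None of the 45 pairs had an adjusted p of r under 0.05. By Spearman's rho other pairs ranked higher, led by Fgf8 with Fgfr3 and Fgfr2 with Etv4, each at 0.86 (exact permutation p = 0.0238). For Fgf8 with Fgfr3, r was 0.68 (exact permutation p = 0.0891, adjusted p = 0.566), and 0.99 without KOAC10-8 and KOAC9-1. For Fgfr2 with Etv4, r was 0.49 (exact permutation p = 0.231, adjusted p = 0.566), and 0.56 without KOAC9-1 and KOAC10-2. Genotypes were pooled in these values, and all 10 genes of an embryo share its library.

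The genes whose profile over the 7 embryos was most like that of Fgf8, by Pearson's r on the same scale, were Id3, Foxa2 and Greb1, each with r = 0.989. Foxa2 is a factor of the floor plate and foregut. With 7 embryos such values are common, and 339 genes had r above 0.9 with Fgf8. For Etv4, with 256 such genes, Uchl3, Tubg1 and Rsph3a came first, and for Dusp6, with 157, Zfp277, Gpn1 and Bmi1. For Fgfr3, with 24 such genes, these were Gja4 and Pecam1, both genes of blood vessels, and Sirt4. For Fgf10, with 22, they were Adm, Elp4 and Upp1.

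The closest genes of Fgfr1 were Gm49274, Limd1 and AU020206, and those of Fgfr2 were Utp20, Lsm3 and Gm48684. For Spry1 they were Chpf2, Zfp72 and Tpgs1, for Spry2 Macrod2, Col9a1 and 9430065F17Rik, and for Spry4 Pigb, Mir6955 and Gm47766.

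**Figure D5:**
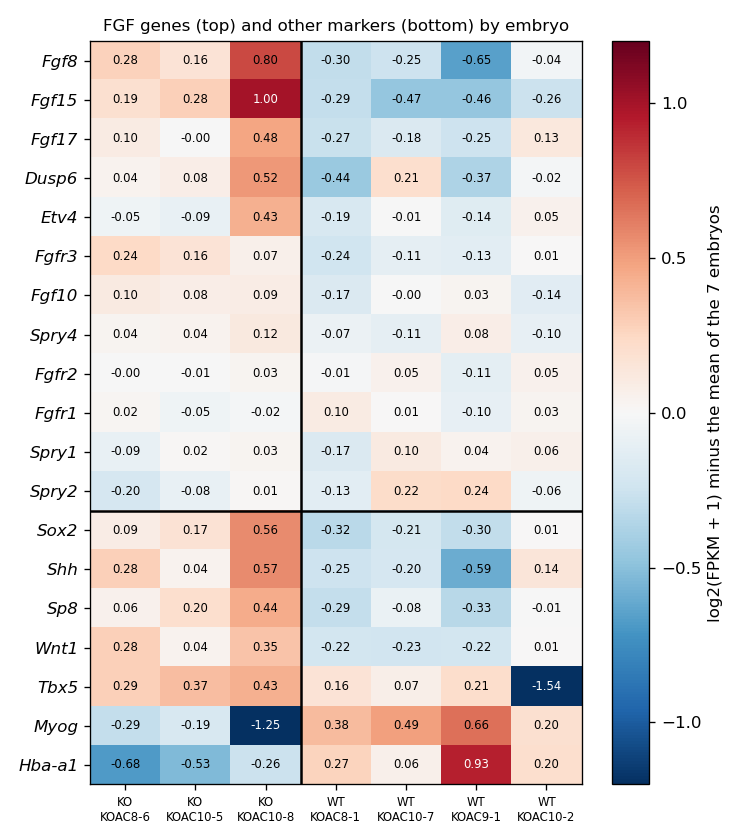
Difference of log2(FPKM + 1) from the mean of the 7 embryos (colour and number in each cell, red above and blue below) for 12 FGF genes over the line and 7 marker genes under it, in 3 KO and 4 WT embryos. In KOAC10-8, Fgf8, Fgf15, Fgf17, Dusp6, Etv4, Sox2 and Sp8 have their highest value, and Tbx5 is far below the mean in WT embryo KOAC10-2.

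The rest of the pathway was taken from a list of 71 further genes, of which 69 were in the table and 56 were tested. Fgf21 and Spry3 were not analysed here. At an adjusted p under 0.05, 0 of 56 passed. At an unadjusted p under 0.05, 4 were higher and 5 lower in KO embryos, 9 in all, which became 17 without KOAC10-5. Over all genes tested these shares were 5.27% and 6.19%. Of the 56, the groups did not overlap for 4 higher and 7 lower genes, against 5.61% and 5.98% of all genes tested, and Fgf1, Fgf7 and Fgfbp1, which were not tested, were also lower without overlap. The median log2 fold change of the list was -0.01.

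Heparan sulphate genes make and edit the sugar chains that FGFs need to bind receptors. In the KO mean 8 of 10 were lower, and 53.1% of all genes tested were higher. The median log2 fold change of the group was -0.07. Sulf2, an extracellular enzyme that trims sulphate from these chains and the most abundant of the group, was at 97.8, 107.5 and 102.3 FPKM in KOAC8-6, KOAC10-5 and KOAC10-8. In KOAC8-1, KOAC10-7, KOAC9-1 and KOAC10-2 it was at 113.9, 117.4, 122.8 and 120.1 FPKM. The groups were clear of each other, with a log2 fold change of -0.21 (standard error 0.05, limma adjusted p = 0.286). Ext2, a chain polymerase, was also below the WT range in every KO embryo (log2 fold change -0.14, limma adjusted p = 0.363).

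Of the other feedback inhibitors, 9 of 11 were on the higher side in KO embryos, against 53.1% of all genes tested. Their median log2 fold change was 0.16. Dusp2, a phosphatase of nuclear ERK, was at 2.34 to 2.78 FPKM in KO embryos and 1.90 to 2.10 FPKM in WT embryos (log2 fold change 0.27, limma adjusted p = 0.318). Dusp4, another nuclear phosphatase, lay the other way, at 19.2 to 23.1 FPKM in KO embryos and 24.4 to 28.2 FPKM in WT embryos (log2 fold change -0.26, limma adjusted p = 0.347). Both were free of overlap. Il17rd, a membrane inhibitor of FGF receptors also called Sef, had a log2 fold change of 0.195 (limma adjusted p = 0.454), and lies 0.5 Mb from Slmap. Rasa1, which turns RAS off and was the most abundant of this group, had a log2 fold change of 0.16 (limma adjusted p = 0.558), or 0.09 without KOAC10-5. The further ETS targets Etv5 and Etv1 had log2 fold changes of 0.13 and -0.01 (limma adjusted p = 0.672 and 0.977), and Etv5 was highest in KOAC10-8, at 16.9 FPKM against 11.96 to 13.28 FPKM in the other embryos. Without KOAC10-8 the log2 fold change of Etv5 was -0.01.

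The intracellular FGF homologous factors are not secreted and act on sodium channels of neurons. In the KO mean 4 of 4 of these factors were lower, and 53.1% of all genes tested were higher. Fgf13, the most abundant, was at 18.4 to 20.6 FPKM in KO embryos and 21.4 to 28.8 FPKM in WT embryos, without overlap (log2 fold change -0.295, limma adjusted p = 0.360). Among further receptors and cofactors, Fgfbp3, a carrier that frees FGFs from the matrix, was at 17.2 to 20.3 FPKM in KO embryos and 14.2 to 16.7 FPKM in WT embryos, also without overlap (log2 fold change 0.28, limma adjusted p = 0.321). Fgfbp1, a related carrier, was not tested, at 0.25 to 0.38 FPKM in KO embryos and 0.43 to 0.69 FPKM in WT embryos. Fgfr4, a receptor of early muscle, was at 1.40 to 3.28 FPKM in KO embryos and 2.88 to 6.00 FPKM in WT embryos, with overlap (log2 fold change -0.60, or -0.33 without KOAC10-8, limma adjusted p = 0.456). The skeletal muscle genes given above were lower in KO embryos, and the part of muscle in the Fgfr4 values was not tested. The most abundant of these further receptors and cofactors, Fgfrl1, a receptor without a kinase, had a log2 fold change of -0.08 (limma adjusted p = 0.646).

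The 18 adaptors and kinases between receptor and ERK were centred near the WT level, with a median log2 fold change of -0.01 and values from -0.15 to 0.16. Map2k1, which encodes the ERK kinase MEK1, was at 32.9 to 34.0 FPKM in KO embryos and 29.0 to 31.7 FPKM in WT embryos, without overlap (log2 fold change 0.15, limma adjusted p = 0.363). Map2k2, for MEK2, was the most abundant of the group and had a log2 fold change of 0.12 (limma adjusted p = 0.654), or 0.045 without KOAC10-8. The adaptors Frs2, Shc1 and the phosphatase gene Ptpn11 were below the WT range in every KO embryo, with log2 fold changes of -0.13, -0.12 and -0.05 (limma adjusted p = 0.456, 0.432 and 0.641). The adaptor Frs2 couples FGF receptors to RAS.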

How the data were processed

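RNA of 3 SLMAP3 KO and 4 WT whole E11.5 embryos was sequenced from TruSeq RNA v2 libraries, and groups were taken from the labels. The authors deposited 1 FPKM value per gene and embryo, beside columns of their own comparison (mean level, log2 fold change, its error and p-values), which were not used. The submitters' processing notes name Salmon, DESeq2, MultiQC and build GRCm38, with no roles or versions. FPKM values were not rescaled. They were transformed to log2(FPKM + 1), genes that averaged 1 FPKM or more were kept, and the genotypes were compared in limma 3.58.1 (R 4.3.3, eBayes with a trend), with Benjamini-Hochberg adjustment at 0.05. Single values were compared by two-sided exact permutation. The fit was tested on simulated data. Positions and exon overlaps came from GENCODE M21, promoters from RefSeq. Named were the 10 genes, pathway genes without overlap between groups or with an unadjusted p under 0.05, the most abundant gene of each pathway group, the 3 genes most like each of the 10, and marker genes beside a result. Some further pathway genes were named after their values were seen. The 10 genes and all lists were chosen with earlier results of these data known. The FPKM values of 12 marker lists were summed per embryo. Alternatives were pseudocounts of 0.1 and 0.01, no filter, a minimum mean of 5 FPKM, 3 scalings (median-ratio size factors, quantile normalization, a common sum), the KOAC series as a block, Afp as a covariate, a robust fit, embryo weights, each embryo left out, and, added after seeing the data, the 4 embryos with liver transcripts alone.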

Additional observations from a re-analysis of the deposited data

Results flagged for a closer look

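In 52 genes named in the text, the 4 WT embryos were examined for a value far from the other 3, and 4 genes had one, where chance gives about 1 in 20. The gap to the nearest other embryo was 0.949 of the WT range for Wnt1 and 0.868 for Tbx5, both in KOAC10-2, the former with the highest and the latter with the lowest WT value. It was 0.843 of the range for Fgf1, highest in KOAC10-7, and 0.849 for Fgf7, highest in KOAC9-1.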

How the results depend on the processing

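Under all 19 alternatives 0 of the 10 genes had an adjusted p under 0.05, and Fgf8 (log2 fold change 0.53 to 1.01), Fgf10, Fgfr3 (0.23 to 0.34), Spry2, Spry4 and Dusp6 (0.22 to 0.69) kept their sign wherever they were tested. With a minimum mean of 5 FPKM, Fgf8, Fgf10 and Spry4 were not tested, 1 of the 10 genes had an unadjusted p under 0.05, and the median of those tested was 0.011. That count was 2 to 3 with each embryo left out. Signs reversed for Fgfr1, Fgfr2, Spry1 and Etv4, the last (0.165 in all embryos) only without KO embryo KOAC10-8. Fgfr2 was at -0.007 with quantile normalization, -0.001 with a common sum, -0.025 with the KOAC series as a block and -0.005 with embryo weights, and Spry1 at 0.003 with Afp as a covariate and 0.038 in the 4 embryos with liver transcripts. With each embryo left out, Fgfr1 ran from -0.061 to 0.005 (without WT embryo KOAC8-1), Fgfr2 from -0.025 (without WT embryo KOAC9-1; -0.001 without KO embryo KOAC10-8) to 0.03, Spry1 from -0.08 to 0.016 (without KO embryo KOAC8-6; 0.011 without WT embryo KOAC10-7) and Etv4 from -0.002 (without KO embryo KOAC10-8) to 0.258. The median of the 10 genes ran from 0.044 (without KOAC10-8) to 0.15. Genes with an adjusted p under 0.05, 6 in all, came to 7 to 12 with each embryo left out (12 without KOAC8-1), 10 with Afp as a covariate and 17 in the 4 embryos with liver transcripts. Pathway genes with an unadjusted p under 0.05, 9 of 56, came to 6 to 17 (17 without KO embryo KOAC10-5). The causes were not tested. The labels give no replicate numbers, but series 8 and 10 hold embryos of both genotypes. With the series as a block Fgf8 was at 0.604, Fgfr3 at 0.271, Dusp6 at 0.299 and Etv4 at 0.142, and 2 of the 10 genes had an unadjusted p under 0.05. Series 9 held WT embryo KOAC9-1 alone, and these log2 fold changes were the same with KOAC9-1 left out.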
